A study of Vitis labrusca and Vitis cinerea and Vitis acerifolia with 56 samples.

Results

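MYBA1 (VIT_02s0033g00410), MYBA2 (VIT_02s0033g00390) and MYBA3 (VIT_02s0033g00450) are 3 neighbouring genes for R2R3-MYB transcription factors of grapevine, followed here through berry development in 3 species whose clusters were lit or kept dark. They were taken by their identifiers, as 3 of the 29971 gene models of the expression table, and all 3 were measured in every one of its 56 libraries. In Vitis vinifera, MYBA factors switch on the last committed steps of anthocyanin synthesis, above all UFGT, the enzyme that adds glucose to anthocyanidins and makes them stable pigments. The genes lie in a cluster known as the berry colour locus. White-berried cultivars of that species carry MYBA1 and MYBA2 alleles that no longer work. The role of MYBA3 is less well established. The factors act with bHLH partners (MYC1, MYCA1) and a WD40 protein (WDR1), and berries normally switch them on at veraison, the onset of ripening.

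The libraries were made from total RNA of berries. Clusters either hung in sunlight throughout or were kept in boxes covered with aluminium foil until pre-veraison, until veraison or throughout. Berries were taken as young berries, at pre-veraison, at veraison, 2 weeks after veraison and at maturity. Berries still in the box at harvest are called boxed, and those whose box had been removed at an earlier stage re-exposed. There were 6 boxed, 8 re-exposed, 8 sunlight and 2 young berry libraries of V. labrusca. Of V. cinerea there were 5 boxed, 8 re-exposed, 7 sunlight and 2 young berry libraries. Of V. acerifolia there were 3 boxed, 4 re-exposed and 3 sunlight libraries. The cultivar entry describes the V. labrusca vines as a hybrid with V. vinifera, the V. cinerea vines as a native American species and the V. acerifolia vines as wild. The 35 groups of species, stage and treatment held 2 libraries (21 groups) or 1 library (14 groups). Nothing in the labels says whether the replicates of a group came from separate vines, so the p-values measure the spread between these samples, which may be technical. All vines had standard care and no other treatment is named.

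Levels are FPKM as deposited (fragments per length of transcript and per sequencing depth), which are scaled per transcript length and can be set side by side between genes. Near copies share reads, so the split of fragments among MYBA1, MYBA2 and MYBA3 is uncertain. Depth is unknown, total FPKM per library ran from 764972 to 1882693, and a gene listed at 0 may be a failed estimate. In 3 V. labrusca libraries low values were sparse (young berry replicate 1, veraison sunlight replicate 1, and replicate 1 re-exposed at pre-veraison and taken 2 weeks after veraison). They listed 11880 to 14509 genes above 0, against 16683 to 19989 in the others. Whole berries were measured, so fewer pigment-forming cells and less RNA per cell cannot be told apart.

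Not every library went with its species label. Genes private to 1 species up to veraison (22 for V. labrusca, 13 for V. cinerea, 271 for V. acerifolia) went against the label in 9 of the 31 libraries taken after veraison, and in 0 of the 25 taken before or at it. A private gene counted as on above the midpoint between the species, and a library went against its label when another species had the highest share of private genes on. Of the V. cinerea genes, 76.9% to 100% were on in the 3 libraries labelled V. acerifolia, mature, re-exposed at pre-veraison, re-exposed at veraison and sunlight. The share was 46.2% in the library labelled V. labrusca, mature, sunlight replicate 2 and 69.2% in the one labelled V. labrusca, mature, re-exposed at pre-veraison replicate 2. Of the V. labrusca genes, 77.3% were on in sunlight replicate 1 of the mature libraries labelled V. cinerea. The remaining 3, labelled V. cinerea and taken 2 weeks after veraison (both replicates re-exposed at pre-veraison and replicate 2 re-exposed at veraison), showed 19.9% to 22.9% of the V. acerifolia genes. The mature boxed V. acerifolia library, counted as matching its label, showed a like share of 21.4%. In the V. acerifolia library taken 2 weeks after veraison it was 82.7%. Replicate 2 of V. labrusca at veraison, boxed and in sunlight, is given as 2 weeks after veraison in its stage field, against its title. The description field of the V. labrusca libraries names V. cinerea, against their titles and organism. The labels in the titles were used throughout, and the 9 libraries are written of as against their label.

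All 3 genes were low in every library before veraison and high in most later ones. In the 13 libraries taken up to pre-veraison the highest level was 9.40 FPKM for MYBA1, 4.31 FPKM for MYBA2 and 3.08 FPKM for MYBA3, and MYBA3 was listed at 0 in 11 of them. In the 43 libraries from veraison on, MYBA1 reached 171 FPKM (median 36.8 FPKM), MYBA2 256 FPKM (median 61.5 FPKM) and MYBA3 339.7 FPKM (median 31.5 FPKM). The highest MYBA1 value belonged to a library labelled V. acerifolia whose private genes went against the label. The highest MYBA2 value stood in a sparse V. labrusca library and the highest MYBA3 value in a V. labrusca library that was neither.

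**Figure D1:**
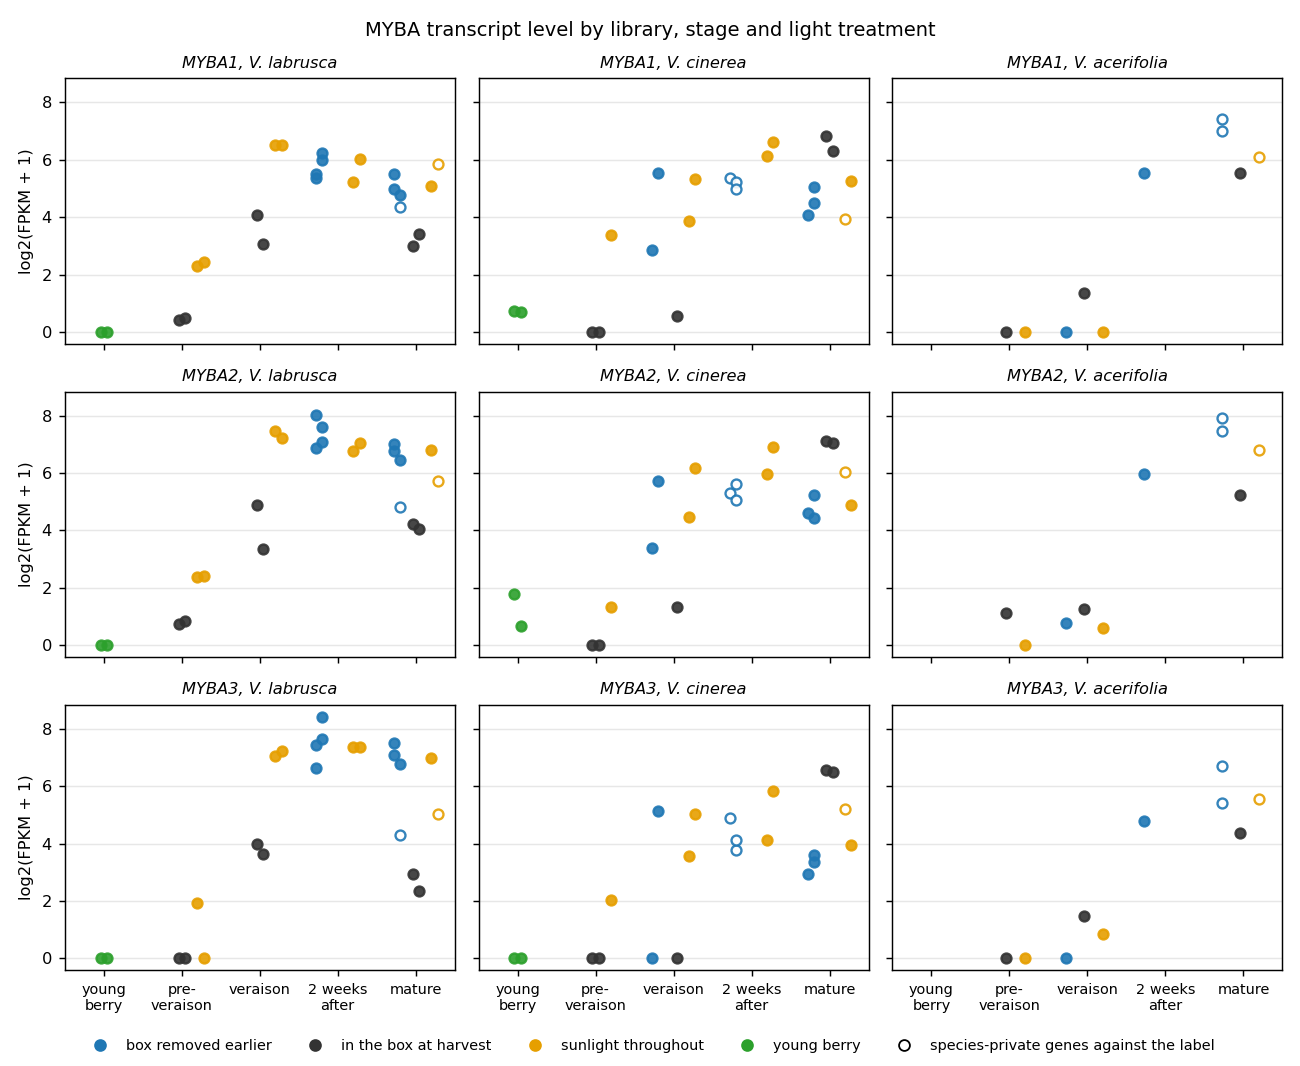
MYBA1, MYBA2 and MYBA3 (rows) as log2(FPKM + 1) on the vertical axis by stage on the horizontal axis, for V. labrusca, V. cinerea and V. acerifolia (columns). Each point is 1 library, coloured by light treatment, and open points are the 9 libraries whose species-private genes went against the label. In sunlight V. labrusca all 3 genes were high from veraison on, while boxed V. cinerea libraries were near 0 at veraison and at 78.4 and 112 FPKM for MYBA1 at maturity.

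In sunlight V. labrusca berries, all 3 genes rose between pre-veraison and veraison. MYBA1 was listed at 0 in both young berry libraries, had 3.90 and 4.43 FPKM at pre-veraison, 90.7 FPKM in both libraries at veraison, 36.7 and 64.1 FPKM 2 weeks later and 33.2 and 56.7 FPKM at maturity. MYBA2 was listed at 0 in young berries and had 4.13 and 4.31 FPKM at pre-veraison, 175 and 147 FPKM at veraison, 109 and 132 FPKM 2 weeks later and 111 and 52.2 FPKM at maturity. MYBA3 was listed at 0 in young berries and had 2.82 and 0 FPKM at pre-veraison, 133 and 147 FPKM at veraison, 165 and 163 FPKM 2 weeks later and 125 and 31.5 FPKM at maturity. The veraison libraries lay above every pre-veraison library for each gene.

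On the log2(FPKM + 1) scale, which understates changes of low genes, veraison exceeded pre-veraison in sunlight V. labrusca by 4.15 for MYBA1, 4.95 for MYBA2 and 6.17 for MYBA3. The limma adjusted p was 8.75e-05, 4.18e-05 and 0.00041 in that order, where 2.85% of the 20333 genes tested were called higher (adjusted p under 0.05). These calls were kept in every alternative that was run. The step from young berry to pre-veraison was 2.37 for MYBA1 (adjusted p = 0.0157) and 2.38 for MYBA2 (adjusted p = 0.0298), and 0.97 for MYBA3 (adjusted p = 0.721), with 2.81% of genes called higher. The first pair of calls was lost without the sparse libraries (adjusted p = 0.0703 for MYBA1 and 0.105 for MYBA2), without young berry replicate 1 (0.0596 and 0.0971) and without either pre-veraison library (0.0778 and 0.127 for MYBA1, 0.136 and 0.173 for MYBA2). Without young berry replicate 2 the call for MYBA2 was lost (adjusted p = 0.0744). From veraison to 2 weeks later limma called 0 of the 3 genes (-0.89, -0.42 and 0.23, with 0.0148% of genes called). From there to maturity it also called 0 (-0.16, -0.65 and -1.37, with 0.00492% of genes called). In both steps 0 had an unadjusted p under 0.05.

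In sunlight V. cinerea berries, the highest levels came 2 weeks after veraison, and replicates lay further apart. MYBA1 had 0.652 and 0.614 FPKM in young berries, 9.40 FPKM in the only pre-veraison library, 13.7 and 39.0 FPKM at veraison, 68.4 and 98.2 FPKM 2 weeks later and 14.4 and 36.8 FPKM at maturity. MYBA2 had 2.47 and 0.603 FPKM in young berries, 1.51 FPKM at pre-veraison, 20.9 and 70.3 FPKM at veraison, 61.6 and 119 FPKM 2 weeks later and 64.4 and 28.6 FPKM at maturity. MYBA3 was listed at 0 in young berries and had 3.08 FPKM at pre-veraison, 10.8 and 32.0 FPKM at veraison, 16.3 and 55.7 FPKM 2 weeks later and 36.2 and 14.5 FPKM at maturity. Neighbouring stages overlapped for MYBA2 and MYBA3 from veraison to maturity.

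From pre-veraison to veraison the V. cinerea step passed for MYBA2, with 3.98 (adjusted p = 0.0151, 0.0541% of genes called higher). It was lost without veraison sunlight replicate 2, with 3.13 (adjusted p = 0.250), and when V. cinerea was fitted by itself (adjusted p = 0.127). MYBA1 had 1.22 (adjusted p = 0.913). From veraison to 2 weeks later limma called 0 of the 3 genes, with MYBA1 at 1.78 (adjusted p = 0.0910, 1 gene of 3 at an unadjusted p under 0.05; 4.87% of genes called). From there to maturity it called 0 as well, with MYBA1 at -1.78 (adjusted p = 0.328, again 1 of 3 at an unadjusted p under 0.05; 0.0246% called). From young berry to pre-veraison MYBA1 alone passed, with 2.67 (adjusted p = 0.0189, 5.06% called higher), a call lost without young berry replicate 1 (adjusted p = 0.0578) or 2 (0.0728) and with V. cinerea fitted by itself (0.0799). Between maturity and pre-veraison in sunlight, V. labrusca passed for all 3 genes, with 3.11, 3.88 and 5.03 for MYBA1, MYBA2 and MYBA3 (adjusted p = 0.000798, 0.000251 and 0.0014; 4.89% called higher). V. cinerea passed for MYBA2 with 4.13 (adjusted p = 0.00113; 3.91% called higher), and had 1.22 for MYBA1 (adjusted p = 0.284) and 2.56 for MYBA3 (adjusted p = 0.18). Without the libraries against their label the V. labrusca differences were 2.73, 4.42 and 6.01 (adjusted p = 0.0207, 0.000787 and 0.00254), and the V. cinerea ones 1.86, 3.56 and 1.93 (adjusted p = 0.147, 0.00917 and 0.38).

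Set side by side in sunlight, V. labrusca berries held more MYBA1 and MYBA2 than V. cinerea berries at veraison. The V. labrusca minus V. cinerea difference there was 1.92 for MYBA1 (adjusted p = 0.0262), 2.03 for MYBA2 (adjusted p = 0.0334) and 2.84 for MYBA3 (adjusted p = 0.0555), with 3.88% of genes called higher. These calls depended on single libraries. Without V. cinerea veraison sunlight replicate 1 the differences were 1.20 and 1.18 (adjusted p = 0.296 and 0.359), without V. labrusca replicate 1 they were 1.92 and 1.90 (0.125 and 0.171), and without V. labrusca replicate 2 they were 1.92 and 2.15 (0.0737 and 0.0703). MYBA3 passed after median-ratio scaling (3.19, adjusted p = 0.0342) and without the libraries against their label (2.84, adjusted p = 0.0391). At the other stages limma called 0 of the 3. Young berries had -0.71, -1.24 and 0 (9.21% of genes called), and pre-veraison berries -1.01, 1.06 and -1.06 (6.38% called). Berries 2 weeks after veraison had -0.74, 0.48 and 2.40 (0.0295% called, MYBA3 with an unadjusted p of 0.0318), and mature berries 0.88, 0.81 and 1.41 (0.0148% called). Leaving out the libraries against their label gave mature differences of -0.15, 1.91 and 3.02, of which limma called 0. With a pseudocount of 0.1 the young berry differences passed for MYBA1 (-2.87, adjusted p = 0.0096) and MYBA2 (-3.75, adjusted p = 0.0031). In V. cinerea, 7 of the 12 steps between neighbouring groups in the order of MYBA1 levels involved a group of 1 library, 4 overlapped and 1 was separate. In V. labrusca, 6 of 11 such steps overlapped and 5 were separate for MYBA1 and for MYBA3, against 8 and 3 for MYBA2.

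All 3 genes were lower in boxed than in sunlight V. labrusca berries. At veraison MYBA1 had 15.7 and 7.29 FPKM in boxed V. labrusca berries, against 90.7 FPKM in both sunlight libraries. MYBA2 had 28.3 and 9.28 FPKM boxed, against 175 and 147 FPKM in sunlight, and MYBA3 had 15.0 and 11.4 FPKM boxed, against 133 and 147 FPKM in sunlight. At pre-veraison MYBA1 had 0.338 and 0.400 FPKM boxed, against 3.90 and 4.43 FPKM in sunlight. In each of these pairs of groups the boxed libraries lay below the sunlight libraries.

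In the model with a block per species and stage, the boxed minus sunlight estimate in V. labrusca was -2.28 (SE 0.54) for MYBA1, -2.24 (SE 0.53) for MYBA2 and -2.63 (SE 0.70) for MYBA3. The adjusted p from limma was 0.00861, 0.00788 and 0.0194, and each of the 6 boxed libraries was below the sunlight mean of its stage for each gene. Of the 20252 genes tested, 6.31% were called in either direction and 1.39% were called lower. The plain mean of the differences at the 3 stages with both treatments was -2.38, -2.31 and -2.55. Permuting the labels within stages gave this mean an exact two-sided p of 0.00926 for MYBA1 and MYBA2 and 0.0278 for MYBA3. In each case this is the smallest that the 216 arrangements allow with the ties at 0. Without the libraries against their label the model estimates were -2.23, -2.40 and -2.86 (adjusted p = 0.0164, 0.00894 and 0.0189). The call for MYBA1 was kept in every alternative run. MYBA2 lost its call without the 2 libraries with conflicting stage entries (-1.94, adjusted p = 0.0503), and so did MYBA3 (-2.45, adjusted p = 0.0731). MYBA3 also lost it with a pseudocount of 0.1 (adjusted p = 0.0592), without mature boxed replicate 1 (-2.58, adjusted p = 0.0512) or replicate 2 (-2.41, adjusted p = 0.0778), and without veraison boxed replicate 2 (-2.51, adjusted p = 0.0565).

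In V. cinerea the boxed libraries lay below the sunlight libraries at pre-veraison and veraison and above them at maturity, though only MYBA1 passed the test at all these stages and its calls depended on single libraries. At pre-veraison MYBA1 was listed at 0 in both boxed libraries, against 9.40 FPKM in the sunlight library. At veraison it had 0.457 FPKM in the boxed library, against 13.7 and 39.0 FPKM in sunlight. At maturity it had 112 and 78.4 FPKM in boxed berries, against 14.4 and 36.8 FPKM in sunlight berries. In the boxed library at veraison MYBA2 had 1.51 FPKM, against 20.9 and 70.3 FPKM in sunlight, and MYBA3 was listed at 0, against 10.8 and 32.0 FPKM. At maturity MYBA2 had 137 and 130.3 FPKM boxed, against 64.4 and 28.6 FPKM in sunlight, and MYBA3 had 93.2 and 89.6 FPKM boxed, against 36.2 and 14.5 FPKM in sunlight. Of the mature sunlight libraries, replicate 1 was against its label. Replicate 2 had 38.5% of the V. cinerea private genes on, against 84.6% in both mature boxed libraries. The change between stages was not itself tested.

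The model with a block per species and stage joined these opposite differences in 1 light term. Its boxed minus sunlight estimate in V. cinerea was -1.24 (SE 0.61, adjusted p = 0.322) for MYBA1, -0.73 (SE 0.59, adjusted p = 0.588) for MYBA2 and -0.71 (SE 0.79, adjusted p = 0.722) for MYBA3. This estimate is not the plain mean of the stage differences. Of the 3 genes limma called 0, and 0 had an unadjusted p under 0.05, with 0.36% of genes called. Without the only boxed veraison library the model estimates for MYBA2 and MYBA3 were above 0, at 0.52 and 0.58, and still not called. The plain mean of the stage differences was -1.82, -1.23 and -1.46. Its exact permutation p within stages was 0.185, 0.333 and 0.259, where 54 arrangements allow no p under 0.0185. The V. labrusca minus V. cinerea difference of the model estimate was -1.05, -1.51 and -1.92 (adjusted p = 0.813, 0.662 and 0.684). Here limma called 0 of the 3 genes and 0% of all genes, and 0 of the 3 had an unadjusted p under 0.05. The V. acerifolia comparison was limited at every stage. No boxed or sunlight library at pre-veraison or veraison exceeded 1.77 FPKM for any of the 3 genes. The mature sunlight library had 100% of the V. cinerea and 0.738% of the V. acerifolia private genes on. In V. acerifolia, with 1 library per group, the boxed minus sunlight values were 0.26, 0.07 and -0.19. Of these limma called 0, and 0 had an unadjusted p under 0.05 (0.844% of genes called). The difference of the box effect from that in V. acerifolia was -2.54, -2.31 and -2.44 for V. labrusca (limma called 0, with 2 at an unadjusted p under 0.05; 0.563% of genes called). For V. cinerea it was -1.50, -0.80 and -0.52 (limma called 0, none at an unadjusted p under 0.05; 0.499% called).

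**Figure D2:**
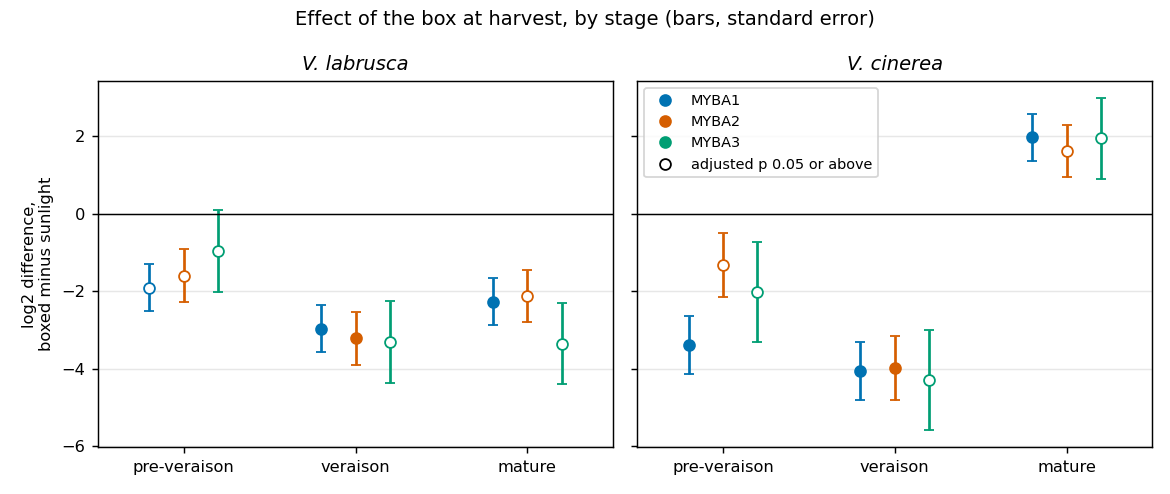
Boxed minus sunlight difference in log2(FPKM + 1) on the vertical axis at pre-veraison, veraison and maturity, for V. labrusca (left) and V. cinerea (right). Points are limma estimates with their standard error, and filled points have an adjusted p under 0.05. All V. labrusca estimates lie below 0, whereas V. cinerea runs between -4.30 for MYBA3 at veraison and 1.97 for MYBA1 at maturity.

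Stage by stage, in V. labrusca the pre-veraison differences were -1.91, -1.60 and -0.97 (adjusted p = 1 each; 0.0492% of genes called). At veraison they were -2.96 (adjusted p = 0.0141), -3.22 (adjusted p = 0.0156) and -3.32 (adjusted p = 0.0859), with 0.457% of genes called lower. Leaving out the sparse libraries ended both veraison calls (adjusted p = 0.131 and 0.150), as did leaving out those with conflicting stage entries (-2.46 and -2.59, adjusted p = 0.125 and 0.139), sunlight replicate 1 (-2.96 and -3.09, adjusted p = 0.168 and 0.194) or boxed replicate 2 (-2.46 each, adjusted p = 0.258 and 0.288). At maturity MYBA1 passed with -2.27 (adjusted p = 0.0330), against -2.12 (adjusted p = 0.0737) for MYBA2 and -3.35 (adjusted p = 0.0694) for MYBA3, with 1.17% called lower. With V. labrusca fitted by itself MYBA2 and MYBA3 passed too (adjusted p = 0.0462 and 0.0260). The MYBA1 call was lost without the libraries against their species label or sunlight replicate 2 (-1.89 each, adjusted p = 0.249 and 0.291), boxed replicate 1 (-2.06, adjusted p = 0.186) or boxed replicate 2 (-2.48, adjusted p = 0.0952).

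In V. cinerea the pre-veraison difference was -3.38 for MYBA1 (adjusted p = 0.0294), -1.33 for MYBA2 (adjusted p = 0.668) and -2.03 for MYBA3 (adjusted p = 0.677), with 0.472% of genes called lower. MYBA2 passed with a pseudocount of 0.1 (adjusted p = 0.0475). The MYBA1 call was lost without boxed replicate 1 (adjusted p = 0.0967) or 2 (0.122) and with V. cinerea fitted by itself (0.192). At veraison MYBA1 passed with -4.06 (adjusted p = 0.0168) and MYBA2 with -3.98 (adjusted p = 0.0498), whereas MYBA3 had -4.30 (adjusted p = 0.496), with 0.0443% called lower. The veraison calls were lost without sunlight replicate 2 (-3.33 and -3.13, adjusted p = 0.147 and 0.338) and with V. cinerea fitted by itself (adjusted p = 0.362 and 0.364). MYBA2 also lost its veraison call after median-ratio scaling (adjusted p = 0.0648), without the sparse libraries (0.0796) and without those with conflicting stage entries (0.0661).

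At maturity V. cinerea had 1.97 for MYBA1 (adjusted p = 0.0407), 1.61 for MYBA2 (adjusted p = 0.137) and 1.94 for MYBA3 (adjusted p = 0.274), with 7.84% of genes called higher. The MYBA1 call was lost without sunlight replicate 1, whose private genes went against its label (1.32, adjusted p = 0.331), without all such libraries (1.32, adjusted p = 0.327), without boxed replicate 1 (1.72, adjusted p = 0.243) or 2 (2.22, adjusted p = 0.117), with a pseudocount of 0.1 (0.057), without the filter (0.0502), after scaling (0.0681) and in V. cinerea alone (0.122). Sunlight replicate 2 was also unclear in identity, with 38.5% of the V. cinerea private genes on, against 84.6% in both boxed libraries. Tested directly, the V. labrusca minus V. cinerea difference of the box effect at maturity was -4.24 for MYBA1 (adjusted p = 0.0163), -3.74 for MYBA2 (adjusted p = 0.0502) and -5.30 for MYBA3 (adjusted p = 0.0749), with 0.821% called lower. Without the libraries against their label it was -3.21 for MYBA1 (adjusted p = 0.194) and -4.84 for MYBA2 (adjusted p = 0.0441). The MYBA1 call was also lost without V. cinerea mature boxed replicate 1 (-3.98, adjusted p = 0.0854) or sunlight replicate 1 (-3.59, 0.101) and without V. labrusca mature boxed replicate 1 (-4.03, 0.0587) or sunlight replicate 2 (-3.86, 0.129). At pre-veraison and veraison limma called 0 of the 3 differences between the species, and 0 had an unadjusted p under 0.05 (0.143% and 0.0246% of genes called). These stage by stage differences were formed after values had been seen.

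Mature berries whose box had been opened earlier were compared with mature berries that never left it. In V. labrusca MYBA3 had 136 and 18.7 FPKM in berries uncovered at pre-veraison and 182 and 108 FPKM in those uncovered at veraison, against 6.74 and 4.07 FPKM in berries never uncovered. MYBA2 had 107 and 26.8 FPKM uncovered at pre-veraison and 129 and 85.9 FPKM uncovered at veraison, against 17.8 and 15.6 FPKM never uncovered. MYBA1 had 30.4 and 19.2 FPKM and 44.1 and 26.3 FPKM in the same uncovered groups, against 6.98 and 9.66 FPKM never uncovered. All 4 uncovered V. labrusca libraries were above both that were never uncovered, for each gene, including replicate 2 uncovered at pre-veraison, which is against its label (69.2% of V. cinerea and 0% of V. labrusca private genes on).

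In V. cinerea the order was the opposite. MYBA1 had 21.4 FPKM uncovered at pre-veraison and 15.7 and 32.5 FPKM uncovered at veraison, against 112 and 78.4 FPKM never uncovered. MYBA2 had 20.5 FPKM and then 23.5 and 36.5 FPKM in the uncovered groups, against 137 and 130.3 FPKM never uncovered. MYBA3 had 11.3 FPKM and then 6.58 and 9.25 FPKM uncovered, against 93.2 and 89.6 FPKM never uncovered. The 3 uncovered V. cinerea libraries were below both that were never uncovered, for each gene. The share of all genes with such a full separation was not computed in either species. By the rule used, none of these 5 V. cinerea libraries went against its species label. However, only 23.1% to 38.5% of the V. cinerea private genes were on in the 3 uncovered libraries, against 84.6% in both never uncovered ones. Species identity was thus less clear in the uncovered libraries.

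**Figure D3:**
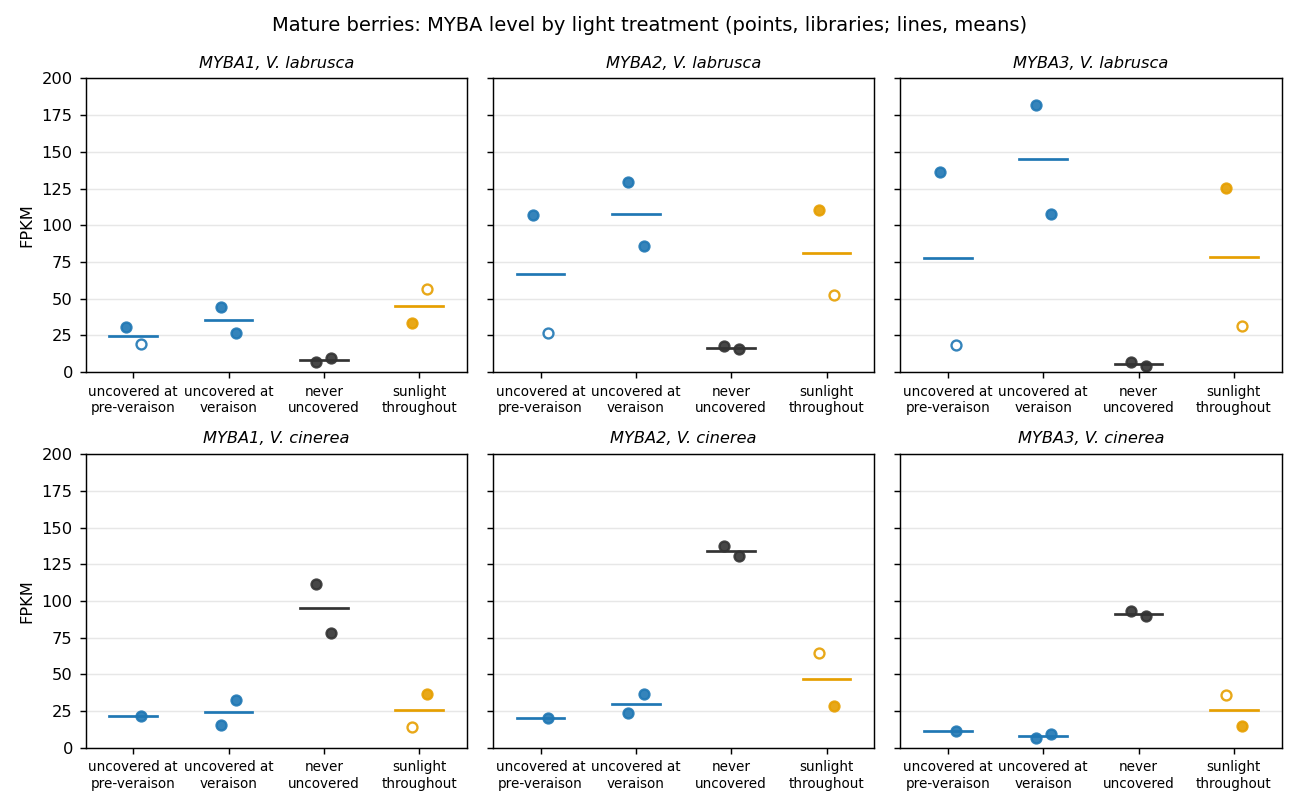
FPKM of MYBA1, MYBA2 and MYBA3 (columns) in mature berries of V. labrusca (top) and V. cinerea (bottom) on the vertical axis, by light treatment on the horizontal axis. Points are libraries, lines are group means, and open points are libraries whose species-private genes went against the label. Never uncovered V. labrusca berries are lowest for every gene and never uncovered V. cinerea berries highest, with MYBA3 at 6.74 and 4.07 FPKM and at 93.2 and 89.6 FPKM.

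The uncovered minus never uncovered difference in mature V. labrusca was 1.69 for MYBA1 (adjusted p = 0.0604), 2.11 for MYBA2 (adjusted p = 0.0329) and 3.77 for MYBA3 (adjusted p = 0.0146), with 1.14% of genes called higher. In V. cinerea it was -2.04 (adjusted p = 0.0154), -2.40 (adjusted p = 0.0107) and -3.15 (adjusted p = 0.0290), with 11.7% called lower. The V. labrusca minus V. cinerea difference between these effects was 3.73 for MYBA1 (adjusted p = 0.00982), 4.51 for MYBA2 (adjusted p = 0.00661) and 6.93 for MYBA3 (adjusted p = 0.00707), with 1.57% called higher. The contrast between the species was formed after the values had been seen. Its MYBA1 call was lost without V. cinerea never uncovered replicate 1 (3.48, adjusted p = 0.0707) or V. labrusca never uncovered replicate 1 (3.52, adjusted p = 0.0543), and its MYBA3 call with a pseudocount of 0.1 (7.25, adjusted p = 0.0552). Without the libraries against their label the V. labrusca differences were 1.85, 2.60 and 4.47 (adjusted p = 0.0562, 0.00917 and 0.00514), and the differences between the species 3.89, 4.996 and 7.63 (adjusted p = 0.00862, 0.00173 and 0.00219).

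The differences within each species leaned on single libraries. In V. labrusca both calls were lost without never uncovered replicate 1 (2.2 and 4.08 for MYBA2 and MYBA3, adjusted p = 0.166 and 0.0815) or 2 (2.02 and 3.47, adjusted p = 0.200 and 0.141), without replicate 1 uncovered at pre-veraison (1.62 and 3.07, adjusted p = 0.109 and 0.0545) and with a pseudocount of 0.1 (0.0513 and 0.103). MYBA2 also lost its call without either library uncovered at veraison (1.96 and 2.26, adjusted p = 0.0988 and 0.0522). MYBA1 passed after scaling (1.93, adjusted p = 0.0349) and in V. labrusca alone (adjusted p = 0.0147). In V. cinerea all 3 calls were lost without never uncovered replicate 1 (-1.79, -2.36 and -3.12, adjusted p = 0.149, 0.0837 and 0.146) or 2 (-2.29, -2.43 and -3.18, adjusted p = 0.0590, 0.0722 and 0.137). MYBA3 lost its call also without replicate 1 uncovered at veraison (-3.04, adjusted p = 0.0586) and with a pseudocount of 0.1 (0.147), and MYBA1 and MYBA3 in V. cinerea alone (0.0657 and 0.0779).

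The uncovered mature V. cinerea berries held less MYBA transcript and more anthocyanin than those never uncovered. The concentration in the labels, given without a unit, was 5.981, 5.697 and 5.307 in the uncovered and 1.085 and 1.973 in the never uncovered mature V. cinerea berries. In V. labrusca it was 1.970, 2.300, 1.553 and 1.758 in the uncovered berries and 0 in both never uncovered libraries.

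In boxed V. cinerea berries all 3 genes rose between veraison and maturity. MYBA1 was listed at 0 in both boxed libraries at pre-veraison, stood at 0.457 FPKM at veraison and at 112 and 78.4 FPKM at maturity. MYBA2 was listed at 0, then stood at 1.51 FPKM, then at 137 and 130.3 FPKM, and MYBA3 was listed at 0 up to veraison and stood at 93.2 and 89.6 FPKM at maturity. The maturity minus pre-veraison difference of boxed V. cinerea berries was 6.56 for MYBA1 (adjusted p = 6.11e-07), 7.07 for MYBA2 (adjusted p = 8.22e-07) and 6.53 for MYBA3 (adjusted p = 0.000435), with 2.03% of genes called higher. These 3 calls were kept in every alternative run. From pre-veraison to veraison in the box limma called 0 of the 3 (0.54, 1.33 and 0, none at an unadjusted p under 0.05; 0.113% of genes called). Between veraison and maturity the differences were 6.02, 5.74 and 6.53 (adjusted p = 6.73e-05, 0.000505 and 0.00873; 0.462% called higher), measured against 1 boxed veraison library. The MYBA3 call of that step was lost without mature boxed replicate 2 (adjusted p = 0.0564) and in V. cinerea alone (0.0885).

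In boxed V. labrusca berries MYBA1 and MYBA2 rose by veraison. MYBA1 had 0.338 and 0.400 FPKM at pre-veraison, 15.7 and 7.29 FPKM at veraison and 6.98 and 9.66 FPKM at maturity. MYBA2 had 0.659 and 0.791 FPKM, then 28.3 and 9.28 FPKM, then 17.8 and 15.6 FPKM, and MYBA3 was listed at 0, then had 15.0 and 11.4 FPKM, then 6.74 and 4.07 FPKM. The veraison step in the box was 3.10 for MYBA1 (adjusted p = 0.00578), 3.33 for MYBA2 (adjusted p = 0.00748) and 3.82 for MYBA3 (adjusted p = 0.0606), with 0.654% of genes called higher. Both calls were lost without pre-veraison boxed replicate 1 (adjusted p = 0.0724 and 0.0932) or veraison boxed replicate 1 (2.60 and 2.58, adjusted p = 0.160 and 0.244). MYBA3 passed with V. labrusca fitted by itself (adjusted p = 0.0229), with a pseudocount of 0.1 (0.0252) and without the libraries against their label (0.0428). From veraison to maturity in the box limma called 0 of the 3 (-0.35, 0.03 and -1.17), and 0 had an unadjusted p under 0.05 (0.0639% of genes called).

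Between maturity and pre-veraison, boxed V. labrusca berries differed by 2.75 for MYBA1 (adjusted p = 0.0132), 3.36 for MYBA2 (adjusted p = 0.00629) and 2.65 for MYBA3 (adjusted p = 0.238), with 0.787% of genes called higher. The MYBA1 call was lost without any 1 of the 4 libraries: 2.96 and 2.54 without mature replicate 1 and 2 (adjusted p = 0.0662 and 0.0787), 2.72 and 2.79 without pre-veraison replicate 1 and 2 (0.121 and 0.0635). The MYBA2 call was lost without replicate 1 of either stage (3.27 and 3.30, adjusted p = 0.0697 and 0.0729). The V. labrusca minus V. cinerea difference of ripening in the box, formed after values had been seen, was -3.81 for MYBA1 (adjusted p = 0.0361), -3.72 for MYBA2 (adjusted p = 0.0796) and -3.88 for MYBA3 (adjusted p = 0.354), with 0.344% called lower. MYBA2 passed with a pseudocount of 0.1 (-6.04, adjusted p = 0.00566) and without the libraries against their label (adjusted p = 0.0478). The MYBA1 call was lost without any 1 of the 8 libraries (between -4.06 and -3.56, adjusted p between 0.0534 and 0.181).

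At maturity in the box the species differed for all 3 genes. V. labrusca minus V. cinerea was -3.36 for MYBA1 (adjusted p = 0.00182), -2.93 for MYBA2 (adjusted p = 0.00863) and -3.88 for MYBA3 (adjusted p = 0.0222), with 5.15% of genes called lower. The MYBA3 call was lost without any 1 of the 4 libraries (adjusted p = 0.126 and 0.124 without V. cinerea replicate 1 and 2, 0.0757 and 0.129 without V. labrusca replicate 1 and 2), and with a pseudocount of 0.1 (0.123). The MYBA2 call was lost without V. cinerea replicate 1 (-2.89, adjusted p = 0.0722) or 2 (-2.97, 0.0674) and without V. labrusca replicate 2 (-2.84, 0.0583).

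Berries re-exposed before harvest were close to sunlight berries of the same stage in V. labrusca, with -0.30, 0.15 and 0.54 for MYBA1, MYBA2 and MYBA3. Of the 3 genes limma called 0, and 0 had an unadjusted p under 0.05, with 0% of all genes called. They were -0.07, 0.28 and 0.68 without the libraries against their label, and limma again called 0. In V. cinerea the values were -0.88 (adjusted p = 0.533), -1.01 (adjusted p = 0.438) and -1.45 (adjusted p = 0.386), of which limma called 0, and 1 had an unadjusted p under 0.05 (0.0198% of genes called). They were -1.33, -1.02 and -1.96 once the libraries against their label were left out (adjusted p = 0.8, 0.872 and 0.76). In V. acerifolia they were 0.70, 0.97 and 0.11, and -0.34, 0.29 and -0.996 without those libraries (limma called 0, none at an unadjusted p under 0.05; 0.0395% called). A p that misses the threshold does not show that these groups were alike.

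In light after veraison, the make-up of the MYBA transcripts differed between libraries matching the V. labrusca and the V. cinerea label. In the 10 V. labrusca libraries taken after veraison in light that matched their label, MYBA3 made up 24.7% to 56% of the summed FPKM (median 50.1%) and MYBA1 11.1% to 17.8% (median 12.2%). In the 6 such V. cinerea libraries MYBA3 made up 11.2% to 21.2% (median 16.2%) and MYBA1 34.3% to 46.7% (median 40.9%). Species identity was clear in only 1 of these 6, sunlight replicate 2 taken 2 weeks after veraison. It had 84.6% of the V. cinerea private genes on, with MYBA3 at 20.4% and MYBA1 at 36.0%. The others of the 6 had 23.1% to 38.5% of these private genes on. The shares of the 2 species did not overlap for either gene, whereas those of MYBA2 did, at 31.8% to 64.2% in V. labrusca and 35.8% to 51.3% in V. cinerea. With the libraries against their label, MYBA3 ran from 22.4% to 56% in V. labrusca and from 11.2% to 31.5% in V. cinerea, and the ranges overlapped. In mature berries never uncovered the order was the other way, with MYBA3 at 21.4% and 13.9% in V. labrusca and 27.3% and 30.0% in V. cinerea. The shares are uncertain wherever reads fit more than 1 of the genes. How well the reads of each species fit these gene models was not tested.

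As a ratio, log2(MYBA3/MYBA1) lay between 1.15 and 2.19 in these V. labrusca libraries (median 2.04) and between -2.07 and -0.82 in the V. cinerea libraries (median -1.30). It was lower in V. labrusca at veraison, with -0.06 and 0.65 in boxed berries and 0.55 and 0.70 in sunlight berries. In V. cinerea at veraison it was -0.35 and -0.29 in sunlight and -0.43 in replicate 2 re-exposed at pre-veraison. In those V. cinerea libraries 86.7% to 100% of the V. cinerea private genes were on. In mature V. labrusca berries never uncovered it was -0.05 and -1.25, and in mature V. cinerea berries never uncovered -0.26 and 0.19. Among mature libraries matching their labels, boxed and lit ones did not overlap in this ratio in V. labrusca, nor in V. cinerea. However, the lit V. cinerea libraries had 23.1% to 38.5% of the V. cinerea private genes on, against 84.6% in both boxed ones. In V. cinerea, light and species identity thus cannot be told apart here.

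Some of the libraries against their label lay outside the range of the species they are labelled as. Sunlight replicate 1 of the mature libraries labelled V. cinerea had 1.33, inside the V. labrusca range. Among mature libraries labelled V. labrusca, sunlight replicate 2 had -0.85 and replicate 2 re-exposed at pre-veraison had -0.04, both below that range. Of the 3 labelled V. cinerea and taken 2 weeks after veraison, 1 had -0.50, above the V. cinerea range, and the others had -1.54 and -0.89, inside it. The 5 libraries labelled V. acerifolia and taken after veraison lay between -1.60 and -0.56, and those against their label (-0.72, -1.60 and -0.56) were not set apart from those matching it (-0.76 and -1.22). Among libraries with at least 10 FPKM in sum that matched their label, MYBA3 led in 11 and MYBA2 in 6 of V. labrusca, while MYBA2 led in 9 and MYBA1 in 4 of V. cinerea.

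**Figure D4:**
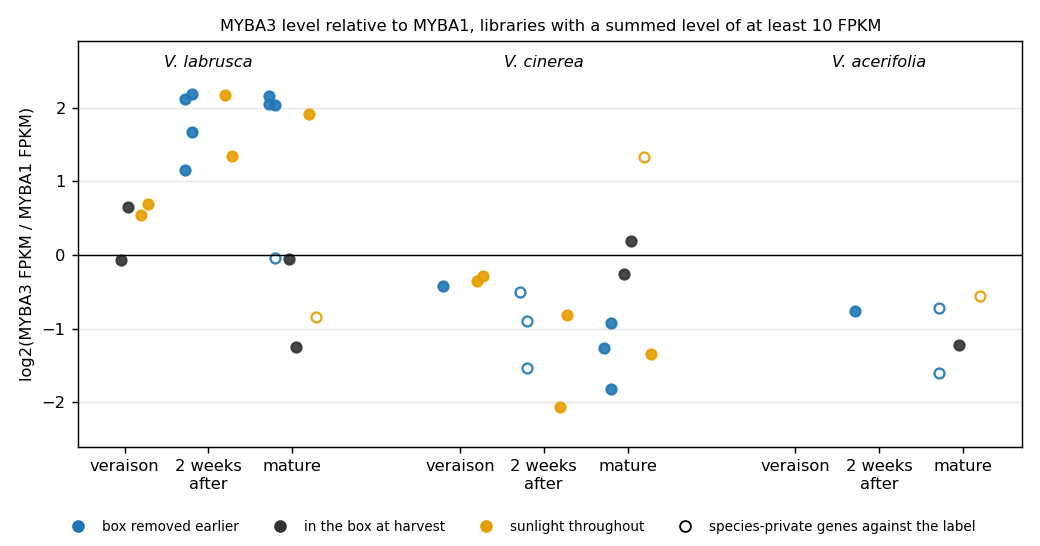
Ratio of MYBA3 to MYBA1 as log2 of the FPKM ratio on the vertical axis, by species, stage and light treatment on the horizontal axis, for libraries from veraison on with at least 10 FPKM over the 3 genes and both genes above 0. Each point is 1 library and open points are libraries whose species-private genes went against the label. Filled V. labrusca points in light after veraison sit between 1.15 and 2.19 and filled V. cinerea points between -2.07 and -0.82, while open points lie at -0.85 and -0.04 in V. labrusca and between -1.54 and 1.33 in V. cinerea.

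In V. acerifolia, with 1 library per group, the genes were low up to veraison and high later. MYBA1 was listed at 0 in all libraries up to veraison but the boxed veraison library, with 1.53 FPKM, and MYBA2 reached no more than 1.39 FPKM there. Anthocyanin was listed at 0 in the same libraries. The library taken 2 weeks after veraison, re-exposed at veraison, held 45.3 FPKM of MYBA1, 61.5 FPKM of MYBA2 and 26.9 FPKM of MYBA3 and entered no comparison. At maturity MYBA1 had 171 FPKM re-exposed at pre-veraison, 127 FPKM re-exposed at veraison, 45.5 FPKM boxed and 67.7 FPKM in sunlight. MYBA2 had 239, 176, 36.7 and 111 FPKM in those 4 libraries, and MYBA3 had 104, 41.8, 19.5 and 46.1 FPKM. All of these mature libraries but the boxed one had private genes against their label, and the boxed one had only 21.4% of the V. acerifolia private genes on.

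Genes most like the MYBA genes were sought over all libraries of a species, by Pearson's r of log2(FPKM + 1). Over the 24 V. labrusca libraries and 18571 genes, MYBA1 was nearest to MYBA2 (r = 0.976), VIT_16s0039g02230 (r = 0.966) and VIT_16s0050g00910 (r = 0.965). MYBA2 was nearest to MYBA1, VIT_19s0014g02650 (r = 0.972) and MYBA3 (r = 0.968), and MYBA3 to MYBA2, VIT_09s0002g05710 (r = 0.964) and VIT_02s0025g04330 (r = 0.963). Over the 22 V. cinerea libraries and 19300 genes, MYBA1 was nearest to VIT_16s0050g00910 (r = 0.958), MYBA2 (r = 0.948) and VIT_04s0079g00690 (r = 0.937). MYBA2 was nearest to VIT_16s0039g02230 (r = 0.963), VIT_16s0050g00910 (r = 0.955) and MYBA1, and MYBA3 to VIT_03s0017g00870 (r = 0.961), VIT_16s0039g02230 (r = 0.950) and MYBA2 (r = 0.932). The libraries share stage and depth, and the members share reads, so these r are descriptions.

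From names recalled and not checked against an annotation, VIT_16s0039g02230 is UFGT, VIT_16s0050g00910 the vacuolar anthocyanin transporter AM3, VIT_04s0079g00690 the glutathione S-transferase GST4 that brings anthocyanins to the vacuole, and VIT_03s0017g00870 the acyltransferase 3AT. UFGT, the target of MYBA factors in V. vinifera, thus ranked 2, 5 and 6 for MYBA1, MYBA2 and MYBA3 in V. labrusca. In V. cinerea it ranked 4, 1 and 2. Ranks of the other anthocyanin genes, by recalled names, varied. In V. cinerea AM3 ranked 1 to 6, 3AT 1 to 8, GST4 3 to 7, AOMT 18 to 28 and LDOX 20 to 37. In V. labrusca AM3 ranked 3 to 18, GST4 9 to 19, 3AT 23 to 66, LDOX 218 to 323 and AOMT 336 to 706. The identifier recalled for DFR ranked at 306 to 485 in V. labrusca and 667 to 1138 in V. cinerea. That for AM1 ranked at 619 to 1001 and 210 to 307. The identifiers recalled for the partners ranked far lower: MYC1 had r between -0.11 and 0.07 with the MYBA genes in both species, WDR1 between 0.10 and 0.26, and MYCA1 between -0.90 and -0.52. Beside the 3 genes, the block VIT_02s0033g00300 to VIT_02s0033g00550 holds 20 other identifiers, of which VIT_02s0033g00380 was listed at 0 in all 13 libraries up to pre-veraison and reached 479 FPKM later. Its r with the 3 genes was between 0.91 and 0.95 in both species.

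The other anthocyanin branch genes were followed by a list of 8 identifiers, named from memory: UFGT, LDOX, DFR, GST4, AOMT, 3AT, AM1 and AM3. In boxed against sunlight V. labrusca 3 of the 8 were lower and 0 higher, where 1.39% of all genes were called lower (LDOX -2.38, AM3 -1.89, AM1 -1.10), with a median of -1.50 against 0.12 over all genes tested, while UFGT had -2.30 (adjusted p = 0.0592). In V. cinerea limma called 0, and the median was -0.34 against 0.10. In mature berries, uncovered against never uncovered, 3 of 8 were higher in V. labrusca (1.14% of all genes called higher; median 1.69 against -0.15) and 5 of 8 lower in V. cinerea (11.7% called lower; median -2.64 against -0.11). In the box 5 of 8 were higher at maturity than at pre-veraison in V. labrusca (0.787% called higher; median 3.83 against -0.07) and 7 of 8 in V. cinerea (2.03% called higher; median 5.37 against -0.09), with UFGT at 4.52 (adjusted p = 0.0219) and 9.66 (adjusted p = 6.58e-06). Of the 3 partners, 0 passed in either species for boxed against sunlight or for ripening in the box. MYCA1 was lower at veraison than at pre-veraison in sunlight V. labrusca (-1.98, adjusted p = 0.0117, 12.5% of genes called lower). WDR1 was higher in boxed than in sunlight mature V. cinerea (2.34, adjusted p = 0.0131, 7.84% called higher). There sunlight replicate 1 was against its label, and replicate 2 had only 38.5% of the V. cinerea private genes on. In uncovered mature V. cinerea 1 partner was lower (11.7% called lower), as was 1 in sunlight V. labrusca at maturity against pre-veraison (14.3%). Against V. cinerea, V. labrusca had 1 lower in sunlight at veraison (17.8% called lower) and 1 in the box at maturity (5.15%).

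Anthocyanin concentration was set against the transcript levels library by library. In V. labrusca it was listed at 0 in 10 libraries and above 0 in 14, which makes separate clusters. Over all 24 libraries Pearson's r was 0.69, 0.69 and 0.72 for MYBA1, MYBA2 and MYBA3 (adjusted permutation p = 0.00026 each). Over the 18 from veraison on it was 0.49, 0.49 and 0.52 (adjusted permutation p = 0.03865 each). Spearman's rho there was 0.33, 0.25 and 0.38 (adjusted permutation p = 0.268, 0.323 and 0.268). Among the 14 above 0, Pearson's r was -0.51 for MYBA1, -0.53 for MYBA2 and -0.45 for MYBA3 (permutation p = 0.0626, 0.0534 and 0.104, adjusted over 3 relations 0.0939, 0.0939 and 0.104), and Spearman's rho was -0.41, -0.53 and -0.30 (permutation p = 0.149, 0.0551 and 0.302). Without the 2 libraries farthest from the median concentration, r among these was -0.08, -0.56 and -0.62, so the value for MYBA1 rests on those libraries. These 14 were chosen by their concentration, which is the measure being related, so their values are a description and support no relation. Boxed V. labrusca berries at veraison held MYBA1 at 15.7 and 7.29 FPKM with a concentration of 0.

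In V. cinerea the 5 mature libraries grown in light stood apart, with concentrations of 5.22 or more at 14.4 to 36.8 FPKM of MYBA1. Over all 22 libraries r was 0.28 for MYBA1, 0.35 for MYBA2 and 0.31 for MYBA3 (permutation p = 0.199, 0.11 and 0.165, adjusted over 3 relations 0.199 each), and rho was 0.50, 0.56 and 0.53 (permutation p = 0.0185, 0.00757 and 0.0127, adjusted 0.0185 each). Without the 2 libraries farthest from the median r was 0.35, 0.34 and 0.25. Over the 17 libraries left without those 5, r was 0.67, 0.69 and 0.66. These 17 were chosen by their concentration, which is the measure being related, so these values are a description and support no relation. V. acerifolia libraries form separate clusters, and no r is given.

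**Figure D5:**
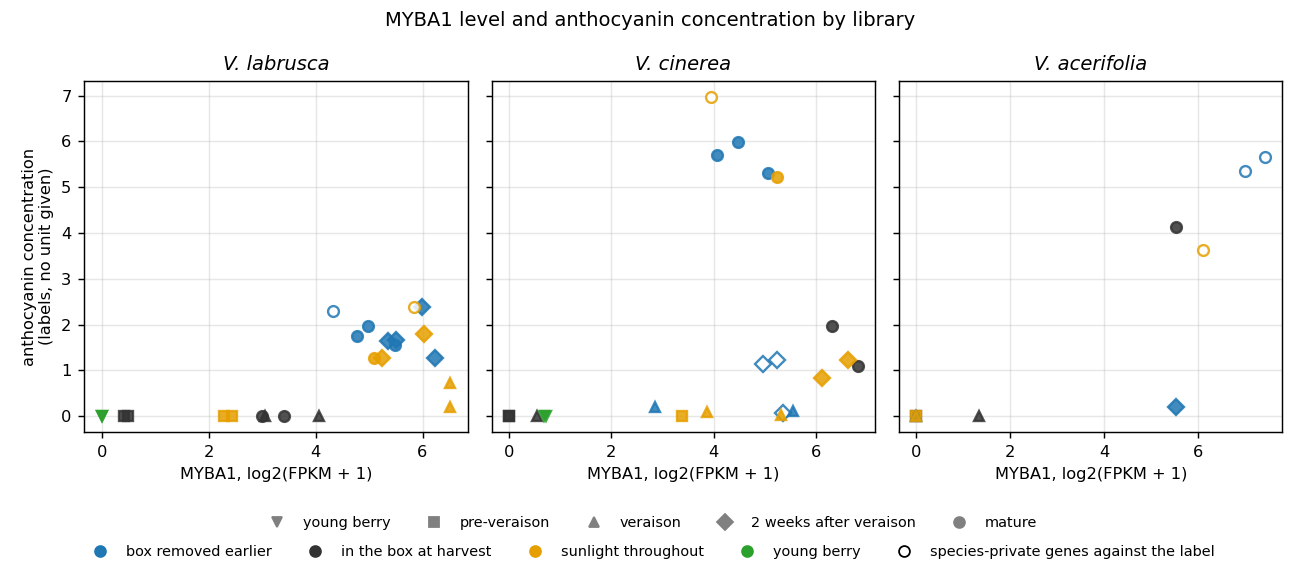
Anthocyanin concentration from the labels (vertical axis, no unit given) against MYBA1 as log2(FPKM + 1) (horizontal axis) for V. labrusca, V. cinerea and V. acerifolia. Each point is 1 library, with the shape for the stage, the colour for the light treatment and open points for libraries whose species-private genes went against the label. Mature V. cinerea berries in light hold 5.22 or more at lower MYBA1 levels than the boxed ones, which hold 1.085 and 1.973.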

How the data were processed

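Berry RNA of 3 grape species was sequenced in 56 libraries. The authors deposited FPKM for 29971 genes, and the submitters' processing notes name Cufflinks 2.2.1 and TopHat2 2.0.14. The genome build was not given in the sources used here. Cufflinks shares out reads that fit several genes by estimation, which can shift values among near copies. FPKM hold no counts, so no counting interval is given.

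Analyses used log2(FPKM + 1). A gene was tested where 2 or more libraries reached an FPKM of 1, with limma 3.58.1 (empirical Bayes trend) in R 4.3.3, and p-values were Benjamini-Hochberg adjusted over all genes tested, with a threshold of 0.05. The comparisons over stages came from a model with a block for each species and stage and a light term per species (51 libraries, 20252 genes, 34 residual degrees of freedom). All other comparisons came from a fit with a coefficient per group (46 libraries, V. acerifolia left out, 20333 genes, with 21 residual degrees of freedom). Groups of 1 library borrow their spread from the other groups. The 44 comparisons gave 132 tests of the 3 genes. Exact permutations were made within stages. The scripts were tested on simulated data.

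The members, gene lists and tests were chosen with earlier results of these data known. Named genes were the 3 members, the 3 genes with the highest r to each in each species, and the 8 branch and 3 partner genes where a result turns on them. The comparisons of box effects between species stage by stage, and of uncovering and of ripening in the box between species, were added after values were seen. The identity check used genes that, up to veraison, separated 1 species from both others by a gap of 1 log2 unit or more. The alternatives were a pseudocount of 0.1, no filter, median-ratio scaling, a replicate block, each species fitted alone, and leaving out doubted, sparse or conflicting libraries and each replicate. The labels name no sequencing batch. Sequences of the genes were not used here.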

Additional observations from a re-analysis of the deposited data

Results flagged for a closer look

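Among mature V. cinerea sunlight libraries, replicate 1 was against its label, and replicate 2 had only 38.5% of the V. cinerea private genes on. The V. labrusca minus V. cinerea difference of the box effect in mature berries was -4.24 for MYBA1, a difference between groups by its own test (limma adjusted p = 0.0163). It was formed after values had been seen, and had an adjusted p of 0.194 without the 9 libraries against their species label.

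The V. labrusca minus V. cinerea difference of uncovering in mature berries was 3.73 for MYBA1, 4.51 for MYBA2 and 6.93 for MYBA3, each a difference between groups by its own test (limma adjusted p = 0.00982, 0.00661 and 0.00707). All 4 uncovered V. labrusca libraries were above the never uncovered ones, and all 3 uncovered V. cinerea libraries below them. Of the 4, 1 was against its species label, and the 3 had only 23.1% to 38.5% of the V. cinerea private genes on. The share of all genes with such a separation was not computed.

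Ripening in the box differed between V. labrusca and V. cinerea by -3.81 for MYBA1 (limma adjusted p = 0.0361). This contrast was formed after values had been seen, and its call was lost when any 1 of the 8 libraries was left out (adjusted p between 0.0534 and 0.181).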

How the results depend on the processing

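No called difference of a MYBA gene changed direction in the alternatives run. The boxed against sunlight V. labrusca comparison called 3 genes, 1 without the libraries with conflicting stage entries, and 2 to 3 when each library was left out in turn. Uncovered against never uncovered mature berries called 2 genes in V. labrusca, 0 with a pseudocount of 0.1 and 0 to 2 without 1 library, and 3 in V. cinerea, 1 with V. cinerea fitted by itself and 0 to 3 without 1 library. V. labrusca ripening in the box called 2 genes, and 0 to 1 without 1 library. The cause was not tested, beyond the smaller number of libraries. By Pearson's r, correlation with anthocyanin passed for 3 genes over the 17 V. cinerea libraries chosen by a concentration under 3, and for 0 over all 22, a choice added after seeing the data. It also passed for 0 among the later of the 17 and 0 among those with a concentration above 0. Over all 22, Spearman's rho was 0.50, 0.56 and 0.53 (adjusted permutation p = 0.0185 each). In V. labrusca r pooled over 24 libraries was 0.69, 0.69 and 0.72 (3 genes passed). From veraison on it was 0.49, 0.49 and 0.52 (adjusted permutation p = 0.03865 each). With a concentration above 0 it was -0.51, -0.53 and -0.45 (0 passed), a choice made after seeing the data. Median-ratio scaling moved the median of all genes by up to 0.17 (ripening in sunlight, both species), 0.15 and 0.11 (uncovering, V. labrusca and V. cinerea) and under 0.1 in the other main comparisons. The labels do not say whether replicate numbers pair the libraries. Deviations of same-numbered libraries correlated between groups with a median r of 0.02 in V. labrusca (highest 0.73) and 0.07 in V. cinerea (highest 0.43). The r was over 0.1 in 6 of 66 pairs of groups in V. labrusca and 14 of 36 in V. cinerea, so some pairing remains possible. With a replicate block the V. labrusca box comparison again called 3 genes and the V. cinerea one 0. The block gained calls for MYBA1 in V. labrusca uncovering (1.69, adjusted p = 0.0360), MYBA3 between species at veraison (3.45, 0.0231), MYBA3 in boxed V. labrusca up to veraison (3.82, 0.0479) and MYBA2 in the difference of mature box effects (-3.74, 0.0371), and lost MYBA3 between species in boxed mature berries (-3.27, 0.0560). Depth is unknown, so differences near 0 FPKM cannot be resolved. Differences that were not called did change sign. With a pseudocount of 0.1 these were MYBA3 in re-exposed V. acerifolia (-0.82) and MYBA2 in the pre-veraison difference of box effects (1.61), and with scaling MYBA2 in boxed V. acerifolia (-0.0064). Without the libraries against their label they were MYBA3 in boxed V. acerifolia (0.32), MYBA1 and MYBA3 in re-exposed V. acerifolia (-0.34 and -0.996) and MYBA1 between species at maturity (-0.15). Without those with conflicting stage entries it was MYBA2 in boxed V. labrusca from veraison to maturity (-0.73). Leaving out 1 library gave -0.47 to 0.89, -0.46 to 0.97 and -0.85 to 0.55 for MYBA1, MYBA2 and MYBA3 in boxed V. acerifolia, -0.44 to 1.01 for MYBA3 in re-exposed V. acerifolia, -1.71 to 0.46 and -1.26 to 0.77 for MYBA2 and MYBA3 in the box effect of V. cinerea minus V. acerifolia, and -1.28 to 0.52 and -1.34 to 0.58 for MYBA2 and MYBA3 in boxed V. cinerea. In sunlight V. cinerea it gave -0.18 to 1.52 and -1.24 to 0.47 for MYBA3 in the steps before and after 2 weeks past veraison, and -0.47 to 0.65 for MYBA2 up to pre-veraison. It gave -0.092 to 1.61 for MYBA2 in the veraison difference of box effects, -0.55 to 0.24 for MYBA1 in sunlight V. labrusca from 2 weeks after veraison to maturity, and -0.85 to 0.15 and -0.73 to 0.78 for MYBA1 and MYBA2 in boxed V. labrusca from veraison to maturity.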
